A study of Mus musculus with 24 samples.

Results

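The circadian clock genes Ciart, Per1, Per2, Per3, Dbp, Tef, Nr1d1, Nr1d2, Arntl and Bhlhe41, members of the core clock and its direct outputs, were followed through bulk RNA of the mouse anterior cingulate cortex, a frontal cortical area. They are 10 of the 15232 genes of the expression table and were selected by name because Ciart was lower after training, so the comparison of trained with untrained animals and the one that shares the trained libraries are given as a description, without a p-value. The study asked how thrombospondins 1 and 2, secreted matrix proteins made by astrocytes, bear on effort in a goal-directed task. The 24 libraries, 1 per animal, formed 3 arms of 8 mice with 4 females and 4 males each: untrained wild type (WT), untrained mice with the Thbs1/2 KO genotype, and trained mice with the Thbs1/2 KO genotype. Trained animals were put on food deprivation and worked in an operant chamber, and tissue was taken within 1 hour after behaviour, so food deprivation and training cannot be told apart. All mice were kept on a standard light/dark cycle with free access to food before training. The clock hour of harvest is not given in the sources used here, and no trained WT arm was analysed here. A mouse's age, its strain and the cells in which the genes were deleted are likewise not given in the sources used here.

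Thbs1 and Thbs2 ran against the genotype labels, and the text therefore speaks of libraries labelled KO or WT. In untrained animals Thbs1 was at 0.51 ± 0.15 FPKM with the WT label and 3.68 ± 0.84 FPKM with the KO label, and Thbs2 was at 2.02 ± 0.29 and 3.51 ± 0.38 FPKM (SD, n = 8 each). FPKM counts fragments per kilobase and per unit of library size, so levels can be compared between genes. Recovered depth ran from 12343772 to 27233188 reads per library. One library, male KO untrained 3, was the deepest and stood apart from the rest. Its cortical neuron markers summed to 225 FPKM against at least 571 FPKM in every other library, and its septal markers summed to 169 FPKM against at most 55.1 FPKM. It was the lowest untrained library labelled KO for Ciart, Per2, Per3, Dbp, Tef, Nr1d2 and Arntl, and values that it moved are given with and without it. All 8 trained animals had animal numbers over 1000, as did only 3 untrained animals, 2 males labelled KO and 1 male labelled WT.

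The clock of mammalian cells is a transcriptional loop. Arntl (BMAL1) and its partner Clock bind E-box elements and activate the Per, Cry and Nr1d genes together with Dbp, Tef, Ciart and Bhlhe41, and the PER, CRY, CIART and BHLHE41 proteins repress that activation in turn. The nuclear receptors encoded by Nr1d1 and Nr1d2 (REV-ERB alpha and beta) repress Arntl and Nfil3 through ROR elements, while Dbp and Tef activate genes through D-box elements that NFIL3 represses. In most mouse tissues Nr1d1, Ciart and Dbp peak during the light phase, the Per genes around dusk, and Arntl and Nfil3 on the opposite side of the day, and tissues of the brain outside the suprachiasmatic nucleus keep such rhythms too.

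Promoter sequences were searched for the elements of this loop. RefSeq windows of GRCm38.p6, from 250 bases before to 50 bases after the annotated start, were found for 9 of the 10 genes (not for Per2). A stretch is shown for each gene with a match, whether or not the gene differed between arms. Another E-box of Tef, in its second window, is not shown. The motifs were searched on both strands as the E-box CACGTG, the related CACGTT, the D-box TTATGTAA or TTACGTAA, the ROR element core TAGGTCA or TGGGTCA, and the cAMP response element TGACGTCA, none of which contains another. Matches are in capitals, all other bases in lower case, and each sequence reads 5′ to 3′ on the strand of its gene.
Ciart: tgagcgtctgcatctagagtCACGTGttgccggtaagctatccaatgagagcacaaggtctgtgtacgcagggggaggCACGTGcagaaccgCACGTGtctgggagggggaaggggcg
Per1: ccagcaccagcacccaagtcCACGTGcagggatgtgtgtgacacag
Bhlhe41: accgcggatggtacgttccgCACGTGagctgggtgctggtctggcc
Tef: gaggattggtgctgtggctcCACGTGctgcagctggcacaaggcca
Nr1d1: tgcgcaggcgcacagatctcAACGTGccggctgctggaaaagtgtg
Per3: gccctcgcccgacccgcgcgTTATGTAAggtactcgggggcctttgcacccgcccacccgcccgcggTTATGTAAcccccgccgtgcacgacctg
Arntl: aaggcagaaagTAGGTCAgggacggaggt
The Ciart stretch lies at chr3:95882247-95882364 on the minus strand, with E-boxes that begin 116, 58 and 44 bases before the start. The Per1 stretch lies at chr11:69098763-69098808 (plus strand), the Bhlhe41 stretch at chr6:145865548-145865593 (minus strand) and the Tef stretch at chr15:81802526-81802571 (plus strand), each with 1 E-box. The Nr1d1 stretch at chr11:98775380-98775425 (minus strand) holds the related CACGTT, read here from its other strand. The Per3 stretch at chr4:151044796-151044890 (minus strand) holds 2 D-boxes and no E-box. The Arntl stretch at chr7:113207530-113207558 (plus strand) holds a ROR element core just after the start of its second annotated window. An E-box was found in at least 1 window of 4 of the 9 genes, and in 7.15% of all 32851 windows of that length. The first is a count of genes and the second a share of windows. Per1, Tef and Arntl each have a second window, and the share of all genes was not counted. The related CACGTT was found in 4.68%, the D-box in 1.06%, the ROR core in 6.45% and the cAMP response element in 1.79% of all windows, and no window of the 9 genes held the cAMP response element. The windows of Dbp and Nr1d2 held none of the motifs searched. A match describes letters and not a bound site. In the same build Ciart spans chr3:95878500-95882257, Nr1d1 chr11:98767932-98775377, Bhlhe41 chr6:145858243-145865420, Per2 chr1:91415977-91459351 and Arntl chr7:113178471-113314126.

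Levels were read first in the untrained libraries labelled WT. Tef, which encodes a D-box activator, was highest at 107 ± 9.2 FPKM (SD, n = 8), followed by Nr1d1 at 68.5 ± 8.4 FPKM (SD, n = 8), Dbp at 44.1 ± 4.7 FPKM (SD, n = 8) and Per1 at 38.6 ± 4.8 FPKM (SD, n = 8). Nr1d2 was at 33.8 ± 5.0 FPKM (SD, n = 8) and Ciart at 28.7 ± 5.9 FPKM (SD, n = 8). Per2 at 11.8 ± 3.0, Per3 at 10.4 ± 1.0 and Arntl at 10.3 ± 1.1 FPKM (SD, n = 8 each) did not differ beyond their spread, nor did Per1 and Nr1d2. Bhlhe41, an E-box repressor also known as DEC2, was lowest at 7.15 ± 0.77 FPKM (SD, n = 8). Each gene rested on at least 321 recovered reads in every library, the lowest count being that of Ciart and the lowest of Tef being 5916 reads. All 10 genes passed the filter of a mean of at least 1 FPKM over the 24 libraries.

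**Figure D1:**
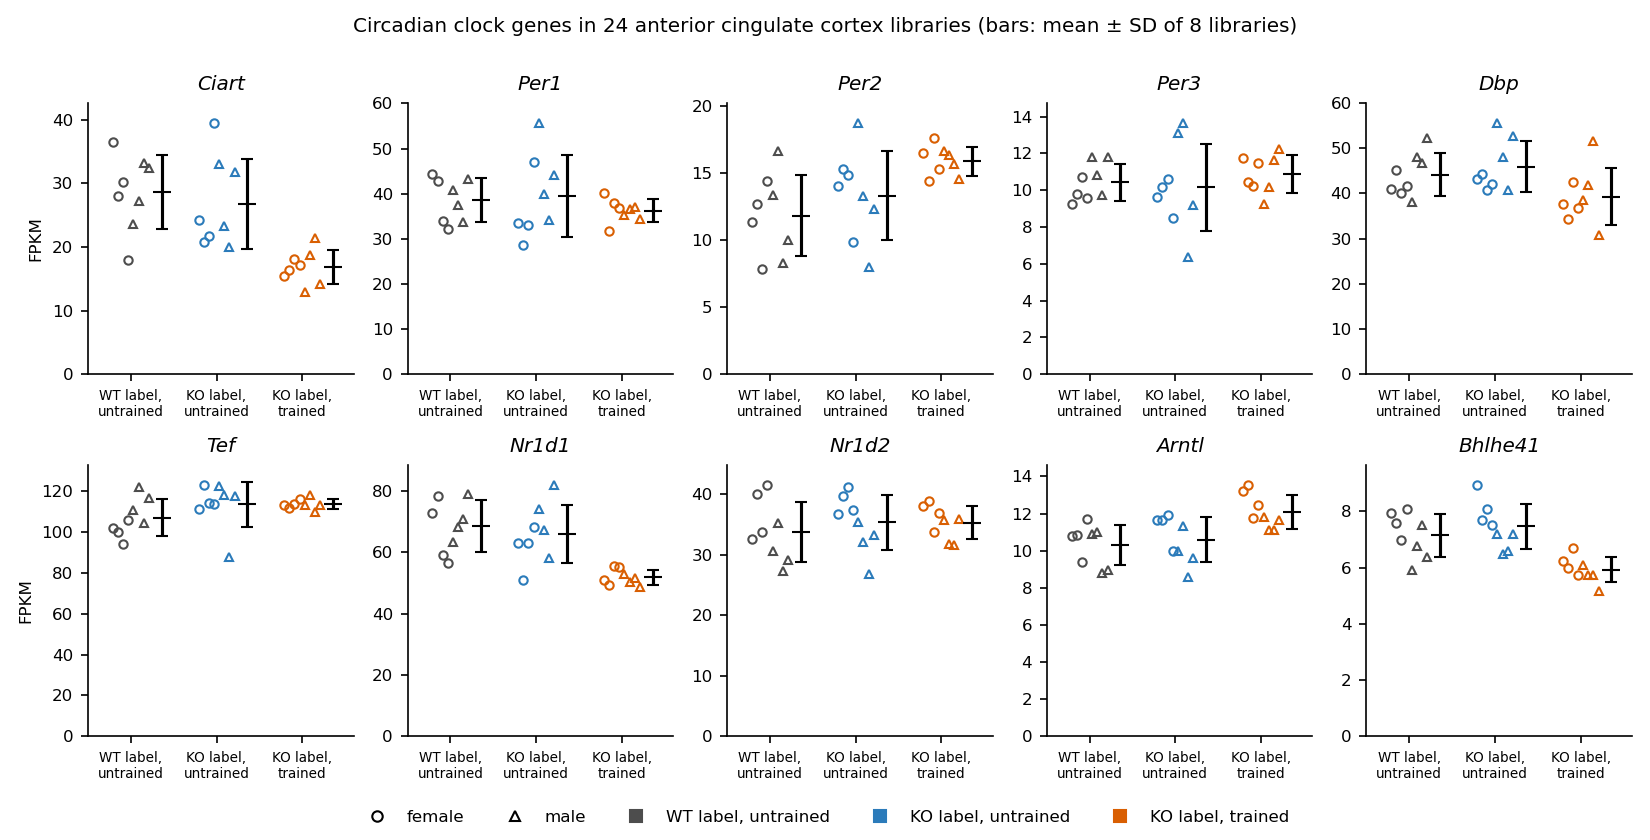
FPKM of each clock gene (vertical axis, from 0) in every library by arm, circles for females and triangles for males, with the mean ± SD of 8 libraries as bars. Ciart and Nr1d1 sit lower in the trained arm, Ciart at 13.0 to 21.4 FPKM there against 18.0 to 39.5 FPKM in the untrained arms, and the trained points of most genes lie closer together.

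Trained libraries labelled KO were compared first with untrained libraries labelled KO, the contrast that led to the choice of these genes. Ciart, Nr1d1 and Bhlhe41, all repressors in the loop, had the most negative log2 changes of the 10, and Per2 and Arntl the most positive. For the record, limma over all 12572 genes tested called 3 of the 10 (these repressors) and 5.67% of all genes at an adjusted threshold of 0.05. Because this contrast chose the genes, that count is no test of them. Across the 10, 5 log2 changes were above 0 and 5 below, with a median of -0.04, beside a median of 0.01 over all genes tested. The log2 changes are differences in log2(FPKM + 1), given with their standard error (SE).

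Ciart, a repressor of the Clock and Arntl pair, ran from 13.0 FPKM over a median of 16.8 to 21.4 FPKM in the trained arm. In the untrained libraries labelled KO it ran from 19.97 over 23.8 to 39.5 FPKM, and in those labelled WT from 18.0 over 29.2 to 36.6 FPKM. The arms overlapped: 7 of 8 trained libraries lay below every untrained library labelled KO, 5 of 8 below every library labelled WT, and 13 of 16 untrained libraries above every trained one. The log2 change with training was -0.62 (SE 0.13), a ratio of mean levels of 0.627. Trained females and males had the same mean, 16.8 FPKM, against 26.6 FPKM in untrained females and 27.0 FPKM in untrained males labelled KO.

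Nr1d1 encodes the receptor that silences Arntl when it is abundant. It ran from 48.6 over 51.2 to 55.5 FPKM in the trained arm, from 51.01 over 65.1 to 81.9 FPKM in the untrained libraries labelled KO and from 56.5 over 69.4 to 79.0 FPKM in those labelled WT. Only 1 of the 16 untrained libraries reached down into the trained range. The log2 change with training was -0.33 (SE 0.07). Its paralog Nr1d2 ran from 31.6 to 38.8 FPKM in the trained arm and from 26.8 to 41.2 FPKM in the untrained libraries labelled KO, with a log2 change of 0.01 (SE 0.06), or -0.04 without the library male KO untrained 3.

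Bhlhe41 ran from 5.2 over 5.9 to 6.7 FPKM in the trained arm against 6.5 over 7.4 to 8.9 FPKM in the untrained libraries labelled KO, a log2 change of -0.29 (SE 0.05). Of the 8 trained libraries, 7 lay below every untrained library labelled KO. Against the libraries labelled WT, whose range began at 5.9 FPKM, 4 of 8 did so. Its close relative Bhlhe40 (DEC1) was at 78.0 ± 6.3 FPKM in the trained arm and at 79.5 ± 19.5 FPKM in the untrained libraries labelled KO (SD, n = 8 each). Without the library male KO untrained 3 the latter was 85.7 ± 9.2 FPKM (SD, n = 7), and the log2 change of Bhlhe40 went from 0.02 to -0.14.

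Per2 and Arntl had the highest log2 changes. Per2, a repressor whose RNA peaks around dusk, ran from 14.4 over 16.0 to 17.6 FPKM in the trained arm and from 8.0 over 13.6 to 18.7 FPKM in the untrained libraries labelled KO, a log2 change of 0.27 (SE 0.12). The trained libraries sat within the upper part of the untrained range, and 5 of 8 untrained libraries labelled KO lay below all of them (4 of 7 without the library male KO untrained 3, from 9.9 FPKM up). Arntl, the activator of the loop, ran from 11.1 over 11.8 to 13.5 FPKM in the trained arm and from 8.6 over 10.7 to 11.9 FPKM in the untrained libraries labelled KO, a log2 change of 0.18 (SE 0.05). Here 3 of 8 trained libraries lay above every untrained library of either label.

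Dbp, a D-box activator and a direct target of Arntl, ran from 30.9 over 38.1 to 51.6 FPKM in the trained arm against 40.7 over 43.6 to 55.6 FPKM, with a log2 change of -0.23 (SE 0.09) and 5 of 8 trained libraries below every untrained library labelled KO. Per1, which is also a fast-responding target of neuronal activity, had a log2 change of -0.09 (SE 0.10), and Per3 one of 0.12 (SE 0.11). Tef was at 114 ± 2.6 FPKM in the trained arm and 114 ± 11.2 FPKM in the untrained libraries labelled KO (SD, n = 8 each), or 117 ± 4.4 FPKM there without the library male KO untrained 3 (SD, n = 7).

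**Figure D2:**
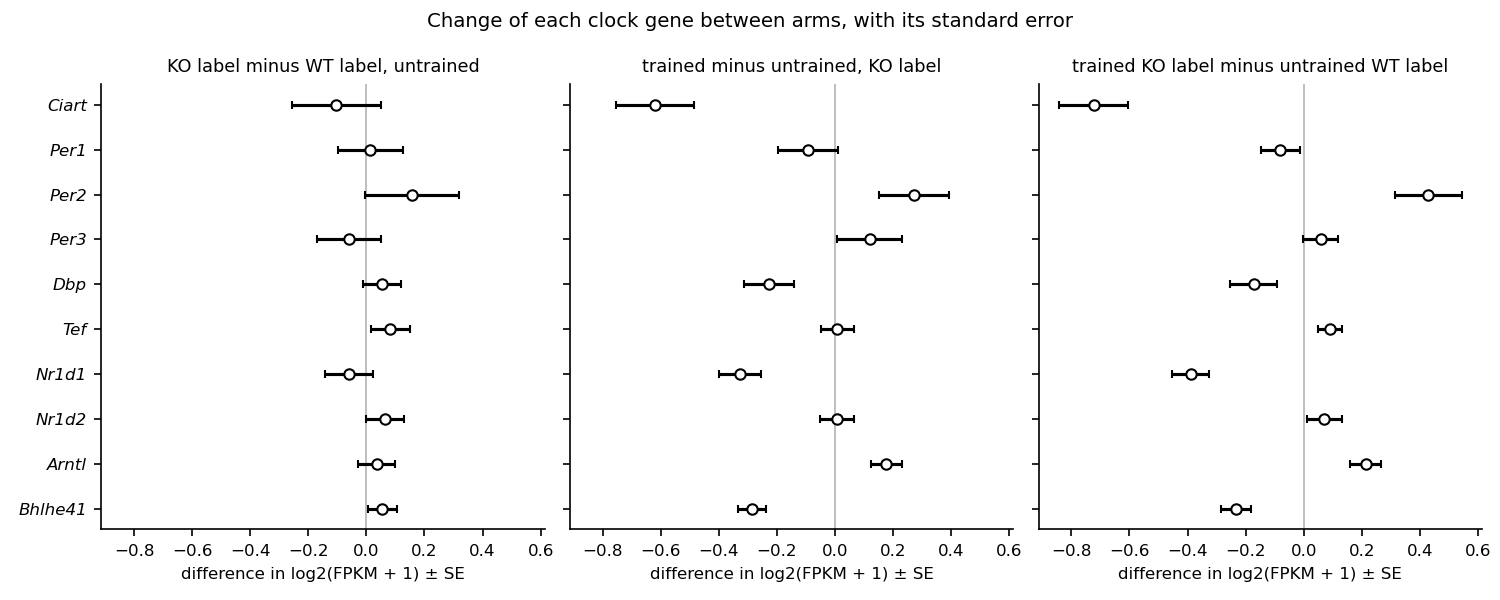
Log2 change ± SE of each clock gene (horizontal axis) in the 3 comparisons of arms. Ciart lies farthest left in both panels with the trained arm, at -0.62 and -0.72, and Per2 farthest right, at 0.27 and 0.43, while for the genotype label all 10 lie between -0.10 and 0.16.

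The animal number bears on this comparison. Among the 3 untrained animals with numbers over 1000, Ciart was at 23.2, 23.6 and 33.1 FPKM and Nr1d1 at 63.4, 67.1 and 74.0 FPKM, all above the highest trained library. Bhlhe41 was at 5.91, 6.47 and 7.21 FPKM in these 3 animals, the first 2 within the trained range of 5.17 to 6.69 FPKM. Dbp was at 38.0, 47.96 and 55.6 FPKM, the first 2 within the trained range of 30.9 to 51.6 FPKM. Arntl was at 9.99, 10.9 and 11.3 FPKM, the last within the trained range of 11.1 to 13.5 FPKM. For Per2 the same 3 animals were at 13.3, 13.3 and 18.7 FPKM, the first 2 below and the last above the trained range. With only males of number over 1000 (4 trained, 2 untrained labelled KO), the log2 change was -0.72 for Ciart, -0.46 for Nr1d1, -0.23 for Bhlhe41 and -0.36 for Dbp, but -0.004 for Per2 and 0.09 for Arntl. With the number as a covariate it was -0.72 for Ciart, -0.42 for Nr1d1, -0.25 for Bhlhe41, -0.08 for Per2 and 0.06 for Arntl. In both of these fits 0% of all genes were called (1306 with the covariate and 1320 among the males at an unadjusted p under 0.05), so that 0 of 10 there says nothing of the clock genes. For Per1 the log2 change was -0.39 among these males and -0.35 with the covariate, and for Per3 it was -0.29 and -0.35, so that Per3 turned from a value above 0 to one below. Among females, number and training cannot be told apart. Without the library male KO untrained 3, Ciart was at -0.68, Nr1d1 at -0.36, Bhlhe41 at -0.30, Per2 at 0.18, Arntl at 0.15 and Per3 at 0.03.

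Trained libraries labelled KO were next set beside untrained libraries labelled WT, which differ in both labels and share the trained libraries with the comparison above. Limma called 3 of the 10 genes lower and 2 higher, where 24.5% of all genes tested were called, and the shared libraries make that count a description too. Ciart had a log2 change of -0.72 (SE 0.12), Nr1d1 one of -0.39 (SE 0.06) and Bhlhe41 one of -0.23 (SE 0.05). The 2 higher genes were Per2, at 0.43 (SE 0.12), and Arntl, at 0.21 (SE 0.05). Nr1d1 was the only one of the 10 whose arms did not overlap, with the highest trained library at 55.5 FPKM and the lowest library labelled WT at 56.5 FPKM. The share of all genes tested whose arms did not overlap was not counted, so that count has nothing to stand beside. For Arntl, 5 of 8 trained libraries lay above every library labelled WT, and for Per2 6 of 8 libraries labelled WT lay below every trained one. Once the animal number entered as a covariate, log2 changes were -0.45 for Ciart, -0.27 for Nr1d1, -0.06 for Bhlhe41, 0.22 for Per2 and 0.06 for Arntl. In that fit 0.175% of all genes were called and 0 of the 10. Only 1 library labelled WT carries a number over 1000, which limits that fit.

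The genotype label alone was compared in the untrained arms, and none of the 10 genes passed. In limma 0 of 10 were called, where 1.42% of all genes were called. An unadjusted p under 0.05 was reached by 0 of 10, beside 12.7% of all genes. Among only 10 genes, counts of 0 lie near both shares. The largest log2 change was that of Per2, 0.16 (SE 0.16, adjusted p = 0.753 in limma), followed by Ciart at -0.10 (SE 0.15). Tef was at 0.08 (SE 0.07, adjusted p = 0.656 in limma), and the other 7 lay between -0.06 and 0.06. Without the library male KO untrained 3, which moved these values by more than 1.5 times, Per2 was at 0.25 (adjusted p = 0.385 in limma), Ciart at -0.04 and Tef at 0.14 (adjusted p = 0.0686 in limma), with 0 of 10 and 2.7% of all genes called. The levels overlapped widely: Per2 was at 7.8 to 16.6 FPKM in libraries labelled WT and at 8.0 to 18.7 FPKM in those labelled KO. Limma-voom on the recovered reads also called 0 of 10.

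Within arms, differences between pairs of genes on the log2(FPKM + 1) scale give the distance of one gene from the other in each animal. The pairs were formed because their arm means had moved in opposite directions, so the shifts below restate those changes. Ciart minus Arntl ran from 0.13 to 0.89 in the trained arm, from 0.79 to 1.88 in the untrained libraries labelled KO and from 0.58 to 1.80 in those labelled WT. Nr1d1 minus Per2 ran from 1.57 to 1.79 in the trained arm against 1.68 to 2.72 and 1.90 to 2.96. Nr1d1 minus Arntl ran from 1.80 to 2.15 in the trained arm against 2.04 to 2.96 and 2.18 to 3.01. In each case the trained arm held the lowest values and the narrowest range, and the ranges overlapped with those of the untrained libraries.

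The trained arm was also the most even. The coefficient of variation (CV, SD over mean) of FPKM was smallest in the trained arm for 9 of the 10 genes, Dbp being the exception, whereas 49.3% of all genes tested had their smallest CV there. The median CV of the 10 genes was 7.54% in the trained arm, 13.7% in the untrained libraries labelled KO and 11.5% in those labelled WT. Over all genes tested it was 9.46%, 12.4% and 10.2% in the same order. Tef had a CV of 2.24% in the trained arm and 9.88% in the untrained libraries labelled KO, which was 3.79% without the library male KO untrained 3. Without that library the median in its arm was 13.3% over the 10 genes and 10.7% over all genes (n = 7). The trained arm then had the smallest CV for 9 of the 10 genes and for 45.2% of all genes. All trained animals had numbers over 1000, whereas both untrained arms mixed numbers over and under 1000. Recovered depth ran from 16796512 to 20414046 reads in the trained arm. It ran from 12343772 to 27233188 in the untrained libraries labelled KO and from 12898226 to 19991770 in those labelled WT. The part of number and depth in the spread was not tested.

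The other clock genes were read from a list of 19 that holds the partners of these genes, of which 17 were high enough to be tested. With training 2 of the 17 were called, both higher, beside 5.67% of all genes. Nfil3, a D-box repressor whose RNA peaks opposite to that of Dbp, ran from 5.8 over 6.0 to 6.4 FPKM in the trained arm, from 3.2 over 4.1 to 5.8 FPKM in the untrained libraries labelled KO and from 3.6 over 4.2 to 5.8 FPKM in those labelled WT. Only 1 of the 16 untrained libraries reached the trained range, and the log2 change was 0.46 (SE 0.09), or 0.40 without the library male KO untrained 3. The 3 untrained animals with numbers over 1000 were at 5.1, 5.8 and 5.8 FPKM, near the trained range, and with the number as a covariate the log2 change of Nfil3 was 0.13. Ciart minus Nfil3, a pair chosen after its values were seen, ran from 1.00 to 1.66 in the trained arm and from 1.82 to 2.92 in all untrained libraries, without overlap. Csnk1d, a kinase that phosphorylates PER proteins, had a log2 change of 0.13 (SE 0.04).

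The activators Clock and Npas2 had log2 changes of 0.07 (SE 0.05) and 0.03 (SE 0.05) with training, and the repressors Cry1 and Cry2 had 0.06 (SE 0.06) and 0.02 (SE 0.04). Hlf, a D-box activator related to Tef, was at 0.01 (SE 0.16) and at -0.16 without the library male KO untrained 3. Against the libraries labelled WT 5 of the 17 were called, close to the 24.5% of all genes. Of these, 3 were higher (Cry1 at 0.29, SE 0.08, Nfil3 at 0.40, SE 0.06, and Csnk1d at 0.13, SE 0.04) and 2 were lower. The lower ones were Fbxl21, an F-box protein that acts on CRY, at -0.31 (SE 0.08) and Usp2, a ubiquitin protease, at -0.18 (SE 0.06). For the genotype label 0 of the 17 were called, with 2 at an unadjusted p under 0.05, near the 12.7% of all genes that reached it. One of the 2 was Cry1 at 0.23 (SE 0.07, adjusted p = 0.181 in limma).

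Sex was tested over all 24 libraries with the arm as a covariate, a comparison the choice of genes did not use. Males were lower in Nr1d2, Bhlhe41 and Arntl, and no gene of the 10 was called higher in males. These are 3 of 10, close to the 28.6% of all genes tested that were called. Nr1d2 was at 37.5 ± 3.0 FPKM in females and 32.1 ± 3.2 FPKM in males (SD, n = 12 each), a log2 change of -0.22 (SE 0.05, adjusted p = 0.00303 in limma). Bhlhe41 was at 7.29 ± 0.97 and 6.40 ± 0.71 FPKM (-0.16, SE 0.04, adjusted p = 0.00500 in limma), and Arntl at 11.6 ± 1.2 and 10.4 ± 1.2 FPKM (-0.14, SE 0.05, adjusted p = 0.0253 in limma). The ranges overlapped for all 3, as for Nr1d2 at 32.6 to 41.5 FPKM in females and 26.8 to 36.0 FPKM in males. After correction for GC content and gene length the calls ended: the log2 changes were -0.10 for Nr1d2 (adjusted p = 0.199 in limma), -0.10 for Bhlhe41 (adjusted p = 0.211 in limma) and -0.14 for Arntl (adjusted p = 0.0692 in limma). Among animals with numbers under 1000, Nr1d2 was at -0.31 and Arntl at -0.21, still called, while Bhlhe41 at -0.16 was not (adjusted p = 0.0549 in limma). In that fit Dbp was called higher in males, at 0.17 (adjusted p = 0.0450 in limma), and 2978 of 12572 genes were called. Over all 24 libraries Dbp was at 0.14 and not called (adjusted p = 0.115 in limma). Of the genes that led the training comparison, Ciart was at 0.03 (SE 0.11, adjusted p = 0.870 in limma) and Nr1d1 at 0.08 (SE 0.06, adjusted p = 0.374 in limma).

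Of the other clock genes, 4 of 17 were called lower in males and none was called higher, beside the same 28.6% of all genes. Among them were Clock at -0.24 (SE 0.04), Arntl2 at -0.18 (SE 0.06) and Rora, an activator of Arntl, at -0.36 (SE 0.10). Clock, the partner of Arntl, was at 14.2 ± 0.89 FPKM in females and 11.9 ± 1.0 FPKM in males (SD, n = 12 each). Without the library male KO untrained 3 Rora was at -0.27. With GC and length correction these 3 calls ended and 5.89% of all genes were called. The log2 changes were then -0.03 for Clock (adjusted p = 0.547 in limma), -0.11 for Arntl2 (adjusted p = 0.344 in limma) and -0.14 for Rora (adjusted p = 0.427 in limma). The difference between the sexes itself was tested for both labels. For the genotype label by sex 0 of 10 genes were called, as were 0% of all genes (394 at an unadjusted p under 0.05), and for training by sex 0 of 10 were called, beside 0.00795% of all genes (1952 at an unadjusted p under 0.05). The closest of the 10 was Nr1d1 for training by sex, at -0.24 (SE 0.14, adjusted p = 0.406 in limma).

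How the genes moved together among animals of one sex and arm was described by Pearson's r over the 24 libraries after the mean of each of the 6 sex-by-arm groups was removed. These libraries share tissue, library preparation and base composition, and r is given as a description. Of the 45 pairs, 11 had an r above 0.5 and 1 below -0.5, with a median of 0.26. The share of all gene pairs with such values was not counted. They are not rare: of 12571 genes ranked by r with Ciart, the one at rank 829 still had an r of 0.51. The genes fell around 2 sets. In the first, Per1 and Nr1d1 had an r of 0.73, Ciart and Per1 one of 0.69, and Ciart and Nr1d1 one of 0.66. In the second, Per2 had an r of 0.75 with Arntl, 0.75 with Tef and 0.71 with Nr1d2, and Nr1d2 and Arntl had one of 0.70. Ciart and Arntl ran against each other with an r of -0.50.

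The library male KO untrained 3 weighed on these values. Without it 8 pairs had an r above 0.5, all among the 11 before, 3 were below -0.5, and the median was 0.05. Ciart and Arntl then had an r of -0.74 and Ciart and Nr1d2 one of -0.60. Per3 and Tef went from 0.65 to 0.08, so that pair rested on this library. In the first set Per1 and Nr1d1 were then at 0.67, Ciart and Per1 at 0.64 and Ciart and Nr1d1 at 0.61. In the second, Per2 was at 0.69 with Arntl, 0.68 with Tef and 0.62 with Nr1d2, Nr1d2 was at 0.63 with Arntl and 0.53 with Tef, and Tef and Arntl fell below 0.5, from 0.54 to 0.40. Dbp, a direct target with a known peak near those of Ciart and Nr1d1, had an r of 0.51 with Ciart and 0.48 with Nr1d1, and of 0.44 and 0.36 without that library.

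**Figure D3:**
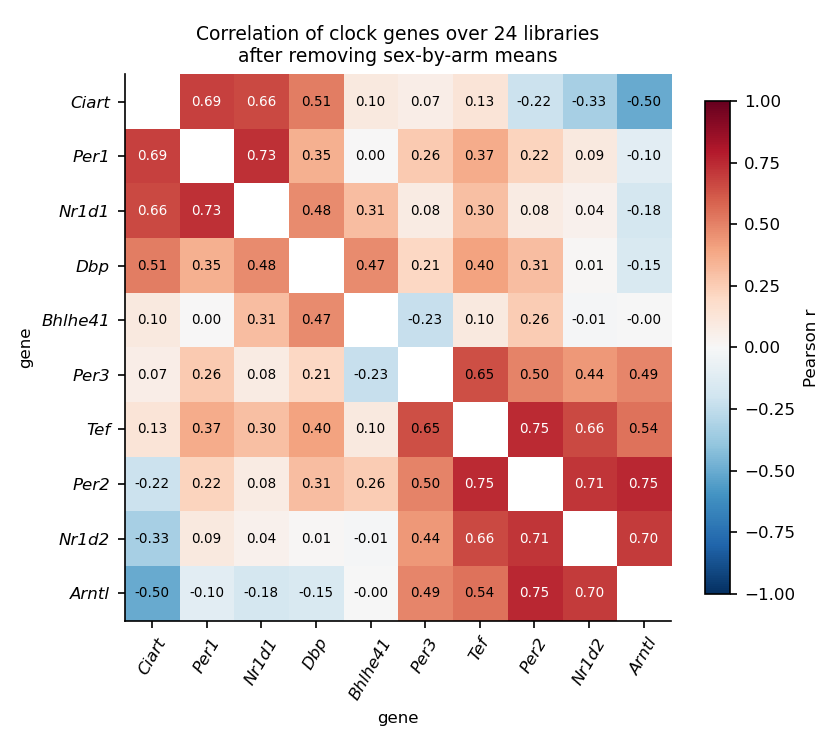
Pearson r of log2(FPKM + 1) between clock genes over 24 libraries after removal of sex-by-arm means, red above 0 and blue below. The upper left holds the pairs of Ciart, Per1 and Nr1d1 (0.66 to 0.73), the lower right those of Tef, Per2, Nr1d2 and Arntl (0.54 to 0.75), and Ciart and Arntl are at -0.50.

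Among all genes tested, the one most like Ciart was another clock output. Usp2, whose RNA is known to cycle, ranked first of 12571 genes with an r of 0.90 (Spearman's rho 0.90), and still ranked first with GC and length correction (0.87) and without the library male KO untrained 3 (0.90). After the 2 libraries farthest from the median of Ciart were left out, r was 0.88. The next 4 were Fam155a (0.85), Bdh1 (0.85), Slc25a3 (0.83) and Znhit3 (0.82), and the 5 lowest were Pcmtd2 (-0.86), Prpf38b (-0.85), Zfp207 (-0.82), Slco1c1 (-0.82) and Uba6 (-0.81). Per1 ranked 87 and Nr1d1 143 from the top, Dbp 829, and Clock 236 from the bottom (-0.65). These lower ranks moved: without the library male KO untrained 3 Per1 ranked 223, Nr1d1 323 and Dbp 1526 from the top and Clock 139 from the bottom. With GC and length correction Per1 ranked 68, Nr1d1 444 and Dbp 2196, and Clock 2979 from the bottom (-0.24). Usp2 itself was at 17.7 ± 0.95 FPKM in the trained arm, 18.9 ± 2.8 FPKM in untrained animals with the KO label and 20.2 ± 2.4 FPKM in those labelled WT (SD, n = 8 each), and its log2 change with training was -0.08 (SE 0.07), far smaller than that of Ciart.

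**Figure D4:**
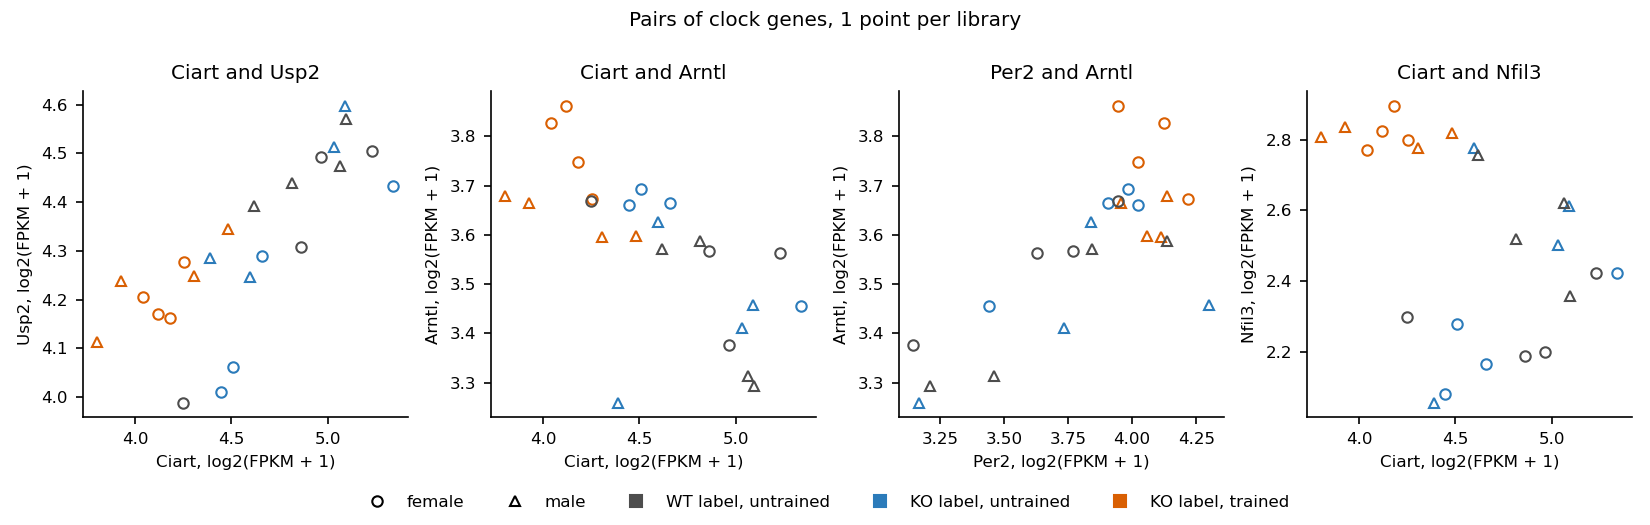
Log2(FPKM + 1) of 4 pairs of clock genes, 1 point per library (orange trained, blue untrained KO label, grey untrained WT label). Usp2 goes with Ciart among libraries of an arm, though it falls far less than Ciart in the trained arm. Arntl is high where Ciart is low, Per2 and Arntl go together, and the trained libraries keep to high Nfil3 and low Ciart.

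For Arntl, the 5 most alike genes were 9330159F19Rik (0.84), Rbm12b1 (0.81), Banp (0.81), Noc3l (0.81) and Zmynd8 (0.80), and the 5 lowest were 1700001L05Rik (-0.89), Mdk (-0.83), Fam58b (-0.82), Lpcat3 (-0.82) and Cspg4 (-0.80). Per2 ranked 41 (0.75) and Nr1d2 95 (0.70), whereas Ciart ranked 571 and Usp2 413 from the bottom. Without the library male KO untrained 3, Per2 ranked 116 (0.69) and Nr1d2 271 (0.63) from the top, and Ciart 18 (-0.74) and Usp2 34 (-0.70) from the bottom. For Dbp, the 5 most alike were Lin7b (0.89), Hn1 (0.88), Efna3 (0.87), Ctxn1 (0.86) and Tubb4b (0.85), and the 5 lowest were Acer3 (-0.85), Trpm3 (-0.84), Pygo1 (-0.83), Ptprz1 (-0.83) and Larp4 (-0.83). None of these 10 is a clock gene, and the best placed clock gene was Cipc, a repressor that binds CLOCK, at rank 86 (0.76), or 208 (0.71) without the library male KO untrained 3.

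Lists of genes that respond to temperature, neuronal activity and glucocorticoids were read beside the training comparison, in which 5.67% of all genes tested were called. Of 8 temperature-responsive genes, 5 were called higher (Hspa1b at 0.74, Dnajb1 at 0.48, Hspa1a at 0.47, Hsph1 at 0.45 and Hspa8 at 0.27) and 1 lower (Cirbp, a cold-inducible RNA-binding protein, at -0.56), with a median of 0.36. Their summed level was 1461 to 1559 FPKM in the trained arm and at most 1384 FPKM in any untrained library. How often sums of other genes part the arms in this way was not counted. All 8 trained animals had animal numbers over 1000, and with the number as a covariate 0% of all genes were called. Values of these lists under that covariate are not given here. Of 10 immediate early genes, which neuronal activity induces, 2 were called higher (Egr2 at 0.81 and Fosb at 0.48) and all 10 were above 0, with a median of 0.57. Of 10 glucocorticoid-responsive genes 1 was called lower (Pdk4 at -0.34), with a median of 0.03. The part of temperature, activity or stress in the clock gene values was not tested, and harvest time, on which the known phases of these genes bear, cannot be told apart from training.

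Markers of cell types were summed in each library beside these results. Astrocyte markers summed to 244 to 324 FPKM in the trained arm, 271 to 387 FPKM in untrained KO-labelled libraries and 276 to 334 FPKM in those labelled WT. Oligodendrocyte markers summed to 878 to 1476, 576 to 1082 and 826 to 1302 FPKM in the same order. The 387 and the 576 FPKM were those of the library male KO untrained 3, without which the untrained libraries labelled KO reached up to 355 and down to 951 FPKM. Cortical neuron markers summed to 579 to 758 FPKM in the trained arm, 571 to 731 FPKM with the WT label and, without that library, 578 to 710 FPKM in the untrained libraries labelled KO. Striatal markers differed widely between libraries of every arm. They summed to 47.3 to 163 FPKM in the trained arm and 52.0 to 223 FPKM with the WT label. In the untrained libraries labelled KO they summed to 54.0 to 226 FPKM without the library male KO untrained 3, itself at 335 FPKM. With training all 6 striatal markers had log2 changes below 0, with a median of -0.11, and 0 were called. The ranges of the arms overlapped for each of these lists. Of all markers 1 was called with training, the endothelial gene Ly6c1 at 0.49 (SE 0.09), and endothelial markers summed to 27.4 to 44.0 FPKM in the trained arm against 23.5 to 38.7 and 22.6 to 34.9 FPKM. No marker of any of the 7 lists was at 0 in every library, and their part in the clock gene values was not tested. In bulk RNA, fewer cells of a type and less RNA per cell cannot be told apart.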

How the data were processed

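The authors deposited FPKM values for 15232 genes in 24 libraries, which per the labels' protocols were stranded and poly(A) selected. The submitters' processing notes name FastQC 0.11.7, Trimmomatic 0.38, STAR 2.5.3a, featureCounts, Subread 1.6.3 and mm10. Annotation and FPKM software are not given in the sources used here. Columns were matched to samples by animal number.

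Log2(FPKM + 1) was fitted with limma 3.58.1 (lmFit, eBayes with trend) in R 4.3.3 over 12572 genes with a mean of at least 1 FPKM, with sex as a covariate, only the compared arms in a fit and Benjamini-Hochberg adjustment at 0.05. This scale understates the change of low genes. P-values measure the spread between animals. Whole reads were recovered from the steps of the FPKM values for 15226 genes, with 99.9869% of values whole within 0.01 read, and served for depth and for limma-voom. Molecular identifiers are not described, so reads cover counting error only. The fits, recovery and correlations were tested on simulated data. Python 3.11.15 with numpy 2.4.6, pandas 2.3.3 and matplotlib 3.10.9 was used.

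The members and lists were chosen with earlier results of these data known. Genes named are the 10 members, Thbs1 and Thbs2, 7 further clock genes (Clock, Npas2, Cry1, Cry2, Nfil3, Hlf and Bhlhe40), list members that passed (1 is not reported here), and the 5 genes most and 5 least like Ciart, Dbp and Arntl. Ciart minus Nfil3 and the ranks, levels, marker sums and spread without 1 library were added after seeing the data. Replicate numbers name different animals and did not pair them (mean correlation of same-numbered deviations 0.02 for the genotype label and -0.07 for training).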

Additional observations from a re-analysis of the deposited data

Results flagged for a closer look

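In each arm of 8 libraries, the highest and lowest value of every clock gene named was set against the rest of its arm. Among 69 such groups, 5 values lay so far from the others that their gap to the nearest took up more of the range than Dixon's 95% critical value allows, and chance alone gives about 3.45. The library male KO untrained 3 was the lowest of its arm for Tef at 87.8 FPKM, for Hlf at 23.9 FPKM, for Bhlhe40 at 36.1 FPKM and for Rora at 4.16 FPKM. It is the library with few cortical and many septal marker transcripts, and the part of that difference in these values was not tested. The library male KO untrained 1 was the highest of its arm for Cry2 at 67.5 FPKM. Chance flags about 1 in 20 groups.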

How the results depend on the processing

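Counts of called clock genes stayed within 1.5 times the main count in 60 alternative fits and passed it in 8, and they stayed within it in all fits that left out 1 library (3 to 4 for training, 5 to 6 for trained KO against untrained WT, 3 to 4 for sex, 0 for the genotype label and both sex interactions). For training, 3 of 10 became 5 with array weights, 5 with GC and length correction, and 0 with the animal number as a covariate, with males of number over 1000 or with the replicate block, where 16.1%, 7.95%, 0%, 0% and 0.231% of all genes were called in that order. For trained KO against untrained WT, 5 became 0 with the animal number as a covariate (0.175% of all genes called) and 4 with the replicate block (12.8%). For sex, 3 became 0 with GC and length correction (5.89%) and 4 with the replicate block (30.9%), and for training by sex 0 became 1 with array weights (9%). The causes were not tested, and the replicate block changed no other count. Values near 0 changed sign. For the genotype label, array weights gave -0.0056 for Per1 and 0.026 for Per3, and leaving out 1 library gave -0.053 to 0.067 for Per1 and -0.12 to 0.035 for Per3. For sex, an equal FPKM sum gave -0.017 for Ciart and -0.013 for Tef, array weights gave 0.030 for Per2, and animals with numbers under 1000 gave -0.064 for Per3. GC and length correction gave -0.050 for Ciart, -0.024 for Per1, -0.031 for Dbp, -0.029 for Tef and -0.059 for Nr1d1. Leaving out 1 library gave -0.030 to 0.089 for Ciart and -0.068 to 0.046 for Per2. For training, Ciart, Nr1d1, Bhlhe41, Dbp, Per1 and Arntl kept their sign in every alternative run. For trained KO against untrained WT all 10 clock genes did so except Dbp (0.10) and Per3 (-0.09) with the animal number as a covariate.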
